A study of Mus musculus with 12 samples.

Results

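The 78 mouse genes for proteins of the mitochondrial ribosome that carry an Mrpl or Mrps symbol were followed through 12 RNA-seq libraries of oocytes. They were chosen by symbol alone, from the rows of both deposited tables. A symbol had to be Mrpl or Mrps followed by a number and, in 3 genes, a letter from a to c. No measured value entered this rule, but earlier results of these data were known when it was set. Of the 55385 gene models in the PRC2 table and the 55401 in the PRC1 table, 49 matched as Mrpl and 29 as Mrps, the same 78 in both. The symbols name the large and the small subunit, with exceptions given where they matter.

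Mitochondrial ribosomes are built in the mitochondrial matrix from ribosomal RNA that the mitochondrial genome encodes and from proteins that are all encoded in the nucleus, made in the cytosol and imported. They translate the few mRNAs of the mitochondrial genome, which encode membrane subunits of the oxidative phosphorylation complexes. In the ovary, oocytes depend on mitochondrial respiration, mitochondria multiply in the oocyte as it leaves the resting pool and grows, and in people inherited variants of MRPS22 have been tied to ovarian insufficiency. Polycomb repressive complexes 1 and 2 (PRC1 and PRC2) are chromatin regulators that ubiquitinate histone H2A and methylate histone H3, respectively.

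The study compared oocytes that lose a Polycomb complex with their controls, in 6 groups of 2 libraries each. Non-growing oocytes were taken from ovaries at postnatal day 6 and growing oocytes at postnatal day 7, so that growth and 1 day of age cannot be told apart. PRC2 control oocytes were EedF/+; Ddx4-Cre and PRC2 conditional knockout (cKO) oocytes were EedF/-; Ddx4-Cre, both at both stages, where Eed encodes a core subunit of PRC2 and Ddx4-Cre recombines in germ cells. PRC1 control growing oocytes were Ring1-/-; Rnf2F/+; Ddx4-Cre, and the libraries labelled PRC1 cKO were Ring1-/-; Ring1F/-; Ddx4-Cre. The ubiquitin ligase subunit of PRC1 is either RING1 or RNF2, and the cKO label repeats Ring1 where Rnf2 may have been meant. All 4 PRC1 libraries thus lack Ring1 by their labels, control included, all 12 libraries carry Ddx4-Cre, and every control carries 1 floxed allele. Whether the libraries within a group stem from separate animals is not in the labels, so p-values measure only the spread between these libraries.

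Values are TPM (transcript abundance per 1000000 transcripts), which correct for transcript length and sum to that number in each library, so they keep no sequencing depth and allow no interval for a single value. Changes were tested within a table with limma on log2(TPM + 1), a scale that understates the change of low genes, with Benjamini-Hochberg adjustment over all 14153 tested genes of the PRC2 table or all 14941 of the PRC1 table and a threshold of 0.05. Below, "rose" and "fell" mean that this test was passed.

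Eed itself was at 88.9 and 90.5 TPM in PRC2 control non-growing oocytes against 12.1 and 10.3 TPM in the cKO, and at 62.3 and 60.5 against 9.64 and 10.1 TPM in growing oocytes. Rnf2 was at 59.2 and 53.8 TPM in PRC1 control, against 87.8 and 61.4 in the libraries labelled PRC1 cKO, and Ring1 was at 0.02 TPM or less in all 4, so gene-level values do not show the deletion in the PRC1 comparison. Oocyte markers summed to between 5793 and 19208 TPM in each library, with all 14 listed above 0. In non-growing oocytes their sum was 7796 and 8176 TPM in PRC2 control, against 5793 and 6474 in the cKO. In PRC2 growing oocytes control (16267 and 16268 TPM) and cKO (13743 and 17573 TPM) overlapped. The sum was 17894 and 19208 TPM in PRC1 control, against 14465 and 13523 in the libraries labelled PRC1 cKO. The 12 granulosa cell markers summed to 3.64 to 5.19 TPM in non-growing oocytes, 9.46 to 12.7 TPM in PRC2 growing oocytes, 9.92 and 12.7 TPM in PRC1 control, against 40.2 and 27.2 in the libraries labelled PRC1 cKO. Stromal cell markers summed to 2.99 and 1.66 TPM in PRC1 control, against 6.27 and 9.49 in the libraries labelled PRC1 cKO. For endothelial cell markers these sums were 7.28 and 6.06 against 10.97 and 13.1 TPM, and for immune cell markers 2.52 and 2.31 against 3.45 and 2.88 TPM. Models of the unverified GENCODE class TEC held 2.26% to 2.57% of TPM in non-growing oocytes, 23.3% to 25.9% in PRC2 growing oocytes, 22.5% and 20.9% in PRC1 control and 11.05% and 14.9% in the libraries labelled PRC1 cKO. Because TPM has a fixed sum, nuclear protein-coding genes held 83.9% to 86.4%, 58.5% to 61.9%, 60.3% and 63.1%, and 75.2% and 70.5% in the same order, and the members' counts and medians are therefore also given after rescaling, while changes of single genes and of other lists are at deposited TPM unless a scaling is named.

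Promoter sequences are shown first for the members at either end of the change with growth, since members that fell together are the main pattern below. RefSeq's table for GRCm38.p6 holds 300-base windows around the start of 69 of the 78 genes, from 250 bases before it to 50 after. The 150 bases from 120 before the annotated start to 30 after it follow, in the direction of transcription, with capitals for any match, on either strand, to the 5 motifs described after them. The members with the largest falls in PRC2 control oocytes were Mrpl33 (chr5:31613831-31613980, plus strand), Mrpl23 (chr7:142532912-142533061, plus strand), Mrpl55 (chr11:59202366-59202515, plus strand) and Mrps10 (chr17:47369077-47369226, plus strand).
Mrpl33: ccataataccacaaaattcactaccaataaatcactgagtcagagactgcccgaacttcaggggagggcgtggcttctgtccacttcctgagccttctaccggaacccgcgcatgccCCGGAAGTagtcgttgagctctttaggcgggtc
Mrpl23: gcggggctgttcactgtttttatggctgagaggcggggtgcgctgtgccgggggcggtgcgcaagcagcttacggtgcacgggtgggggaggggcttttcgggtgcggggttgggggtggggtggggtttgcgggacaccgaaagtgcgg
Mrpl55: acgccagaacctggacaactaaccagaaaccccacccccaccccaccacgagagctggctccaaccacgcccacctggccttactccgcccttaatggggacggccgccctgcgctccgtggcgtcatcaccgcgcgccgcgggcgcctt
Mrps10: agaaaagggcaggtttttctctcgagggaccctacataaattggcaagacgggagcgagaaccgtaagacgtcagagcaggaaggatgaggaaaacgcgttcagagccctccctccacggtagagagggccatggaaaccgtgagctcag

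The members with the smallest changes in the same comparison were Mrpl18 (chr17:12916062-12916211, minus strand), Mrps25 (chr6:92183994-92184143, minus strand), Mrpl14 (chr17:45686229-45686378, plus strand) and Mrpl9 (chr3:94443216-94443365, plus strand). Mrps27 (chr13:99344666-99344815, plus strand) is added because its window holds the ETS and the YY1 motif.
Mrpl18: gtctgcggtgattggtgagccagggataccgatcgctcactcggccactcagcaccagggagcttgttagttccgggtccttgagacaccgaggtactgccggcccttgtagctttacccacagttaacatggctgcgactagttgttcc
Mrps25: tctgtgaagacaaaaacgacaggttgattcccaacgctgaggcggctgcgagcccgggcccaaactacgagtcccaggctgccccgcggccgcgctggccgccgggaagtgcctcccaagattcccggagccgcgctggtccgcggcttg
Mrpl14: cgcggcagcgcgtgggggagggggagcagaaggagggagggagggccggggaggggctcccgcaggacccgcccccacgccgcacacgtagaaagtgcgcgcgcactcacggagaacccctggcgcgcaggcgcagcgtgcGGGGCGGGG
Mrpl9: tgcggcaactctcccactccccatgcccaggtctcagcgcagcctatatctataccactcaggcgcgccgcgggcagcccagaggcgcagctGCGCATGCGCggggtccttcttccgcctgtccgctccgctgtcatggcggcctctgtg
Mrps27: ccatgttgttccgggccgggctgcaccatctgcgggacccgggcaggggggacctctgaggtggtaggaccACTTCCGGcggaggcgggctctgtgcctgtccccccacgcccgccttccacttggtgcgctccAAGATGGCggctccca

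The motifs were searched on both strands of the 300-base windows. The ETS motif CCGGAAGT, of the kind bound by GABP, was in 12 of 69 members (17.4%) against 5.69% of the 17492 protein-coding genes in the table. The YY1 motif AAGATGGC was in 12 members (17.4%) against 3.57%. The NRF1 motif, the capitals in the Mrpl9 window, reads alike on both strands and was in 3 members (4.35%) against 1.47%. These 3 factors are known in mammals for nuclear genes of mitochondrial function. The SP motif GGGGCGGGG was in 13 members (18.8%) against 17.3%, and TATAAA in 5 (7.25%) against 14.8%. The median number of CpG dinucleotides per window was 21 in the members and 13 in all protein-coding genes. These comparison genes were not limited to those detected in oocytes and not matched for CpG number. Mrpl18 holds an ETS and Mrpl23 an SP motif in the part of the 300 bases that is not printed. No motif overlaps another in the printed windows, and the share of members that hold a motif is a description of letters, not of binding. The 12 members with the ETS motif had a median log2 fold change with growth in PRC2 control of -1.03 against -1.06 in the 57 without it. With and without the motif, the control medians were -1.14 and -1.02 for YY1 and -0.858 and -1.096 for SP. For NRF1 they were -1.095 and -1.052, and for TATAAA -1.097 and -1.052. In PRC2 cKO oocytes the medians were -0.804 and -1.208 for SP and -1.29 and -1.05 for YY1. Members with the SP motif thus had the smaller median fall in both genotypes, and those with YY1 the larger. These differences were not tested.

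The genes lie on 17 chromosomes. A protein-coding neighbour that starts head to head, no more than 1000 bases upstream on the opposite strand or overlapping by up to 100 bases, was found in the GENCODE vM21 annotation for 19 of the 78 (24.4%) against 7.23% of all 21951 protein-coding genes. That background, too, was not limited to genes detected in oocytes. Examples are Mrpl36 with Ndufs6, which encodes a subunit of respiratory complex I, and Mrps12 with Sars2, which encodes the mitochondrial seryl-tRNA synthetase. Of the 18 partners tested for growth in PRC2 control oocytes 13 fell and 2 rose (median log2 fold change -1.13), where 54% of all tested genes fell and 16.6% rose. Of 19 tested in PRC1 oocytes 7 rose and 1 fell (median 0.77), where 41.3% of all tested genes rose and 6.45% fell. Another protein-coding gene overlapped 26 members, and the sources used here do not say whether reads were counted by strand. Copies with at least 95% identity over at least 50% of a transcript were found for 14 members, 11 of them with processed pseudogenes, including Mrpl23, Mrpl42, Mrps10, Mrps21 and Mrps36. Mrpl53, Mrps25 and Mrps34 share stretches of transcript with Gm42688, Nr2c2 and Mapk8ip3. Values of these 14 genes are uncertain to the extent that reads were split between copies.

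All 78 members were at 1 TPM or more in every library and all passed the filter on low values in both tables. Their sum took 1.58% and 1.57% of TPM in PRC2 control non-growing oocytes and 1.63% and 1.62% in PRC2 cKO non-growing oocytes. It took 0.745% and 0.691% in PRC2 control growing oocytes and 0.713% and 0.661% in PRC2 cKO growing oocytes. The 4 non-growing libraries lay above the 4 growing libraries, and control and cKO growing libraries overlapped. In the PRC1 table the sum took 0.667% and 0.726% in control and 0.964% and 0.942% in the libraries labelled PRC1 cKO, without overlap. As a share of nuclear protein-coding TPM the sum was 1.84% and 1.82%, and 1.94% and 1.89%, in non-growing control and cKO oocytes. The same share was 1.23% and 1.12%, and 1.22% and 1.07%, in growing control and cKO oocytes. In the PRC1 table it was 1.11% and 1.15% in control and 1.28% and 1.34% in the libraries labelled PRC1 cKO, so both orders held with this denominator.

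**Figure D1:**
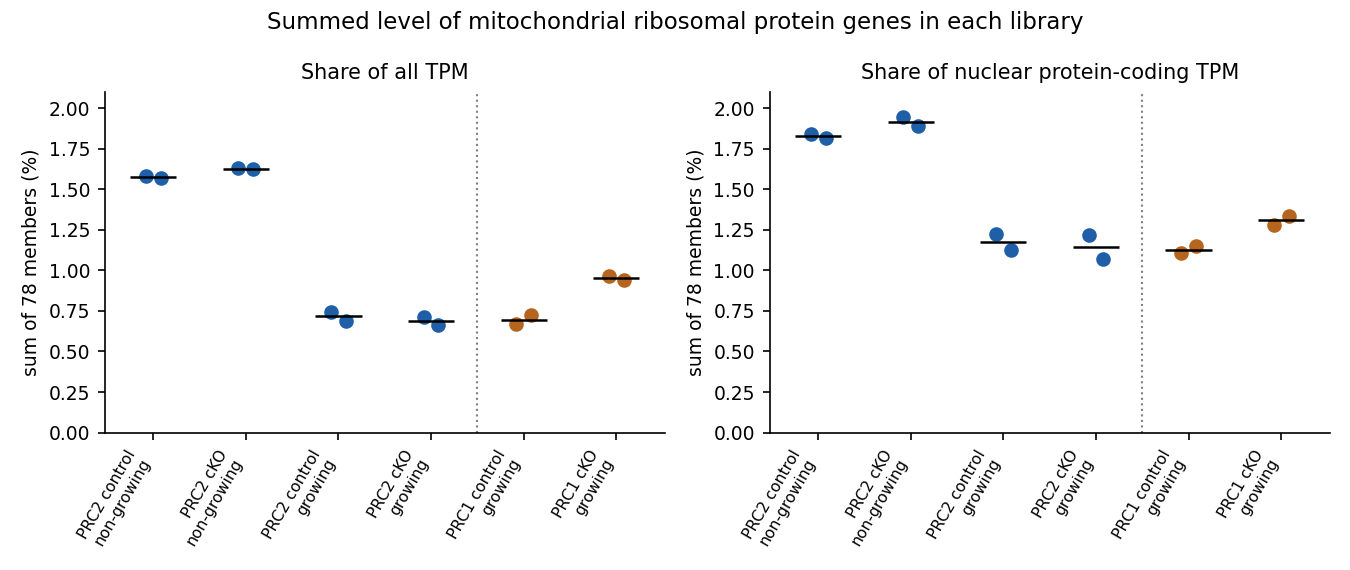
Summed TPM of the 78 members in each library as a percentage of all TPM (left) and of nuclear protein-coding TPM (right). Points are libraries, 2 per group, horizontal lines are group means, and the dotted line separates the PRC2 from the PRC1 table. On the left the non-growing libraries sit between 1.57% and 1.63% and the PRC2 growing libraries between 0.661% and 0.745%.

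Levels of single members differed widely on the TPM scale. Mrps33, a small-subunit protein with no bacterial counterpart, had the highest mean in both tables, 666 TPM over the PRC2 libraries and 372 TPM over the PRC1 libraries. It was followed in the PRC2 table by Mrpl42 at 596, Mrpl58 at 512 and Mrps36 at 469.5 TPM, and in the PRC1 table by Mrps36 at 315, Mrpl58 at 287 and Mrps21 at 244 TPM. Mrpl58 encodes a peptidyl-tRNA hydrolase built into the large subunit, and Mrps36, in spite of its symbol, encodes a subunit of the alpha-ketoglutarate dehydrogenase complex. Within single PRC2 libraries Mrpl42 was the highest member in both cKO non-growing libraries, at 1059 and 1068 TPM, and Mrps33 in the other libraries. The lowest means in the PRC2 table were those of Mrps30 (14.9 TPM), Mrpl10 (18.0), Mrpl50 (18.1) and Mrpl43 (24.9), with Mrpl10 the lowest member in all 4 non-growing libraries and Mrps30 in 3 of the 4 growing ones. In the PRC1 table they were those of Mrpl50 (16.9 TPM), Mrpl39 (20.5), Mrps30 (23.4) and Mrpl1 (25.4). The highest member exceeded the lowest by 17.3 to 76.3 times within a library. The median member stood at the 84.8th to 88.9th percentile of all tested genes in the 12 libraries.

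The mean TPM of Mrpl genes divided by that of Mrps genes was 0.892 and 0.902 in control and 0.911 and 0.934 in cKO non-growing oocytes. It was 0.801 and 0.805 in control and 0.802 and 0.813 in cKO growing oocytes. The 4 growing libraries were below the 4 non-growing ones in this ratio. The ratio of the medians went the other way in control oocytes, from 0.978 and 1.05 to 1.10 and 1.08, and overlapped between stages in cKO oocytes, with 1.01 and 1.03 against 1.01 and 0.961. No shift in the same direction was seen in both ratios of levels. Medians of the changes of single genes, by subunit, are given below. In the PRC1 table the ratio of means was 0.856 and 0.917 in control and 0.905 and 0.877 in the libraries labelled PRC1 cKO, which overlap. The ratio of medians was 1.153 and 1.175 in control and 1.145 and 1.069 in the libraries labelled PRC1 cKO, without overlap.

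**Figure D2:**
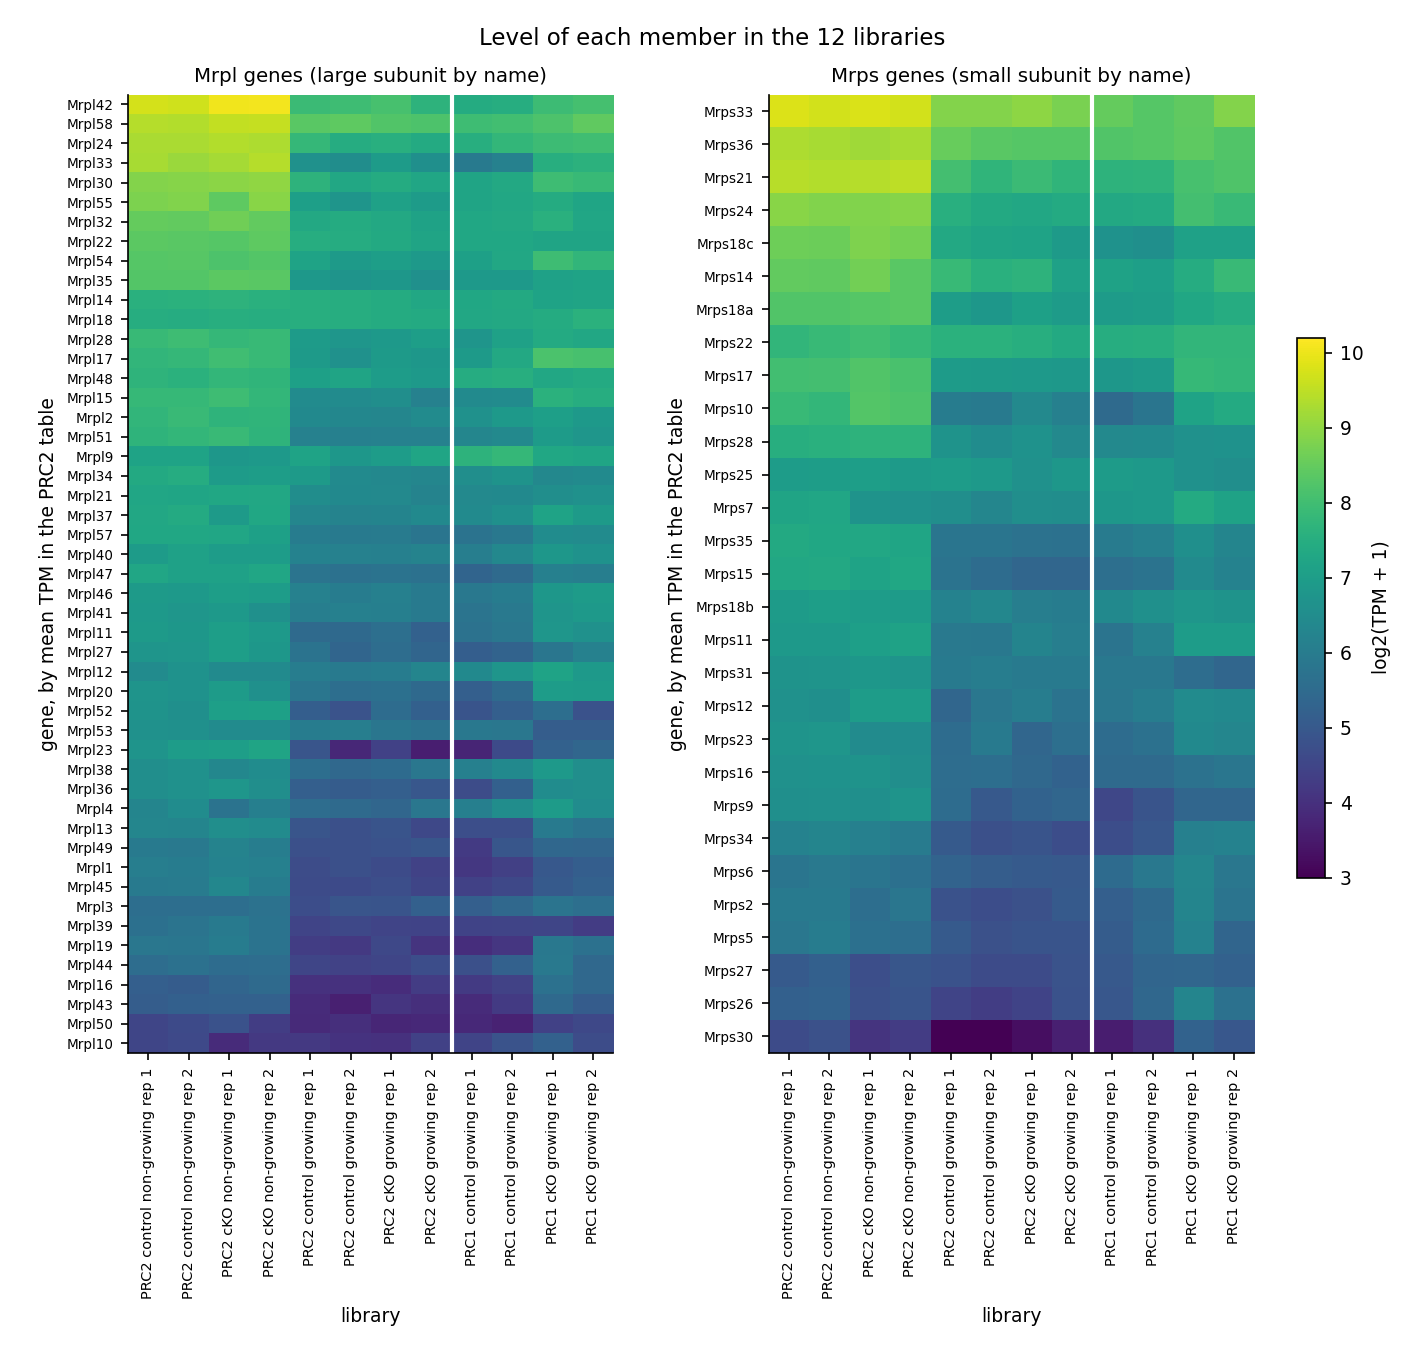
Level of each of the 78 members in the 12 libraries as log2(TPM + 1), with Mrpl genes on the left and Mrps genes on the right, ordered by mean TPM in the PRC2 table; the white line separates the PRC2 from the PRC1 libraries. The 4 non-growing columns are brighter than the growing columns for most rows, and Mrpl14, Mrpl18, Mrps22 and Mrps25 keep nearly the same shade.

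The first comparison asked how the genes changed as oocytes began to grow. In PRC2 control oocytes 72 of the 78 members fell and 0 rose in limma at an adjusted p under 0.05, and 0 rose at an unadjusted p under 0.05. Over all tested genes 54% fell and 16.6% rose. The median log2 fold change of the members was -1.10 against -0.67 for all tested genes. Both growing libraries were below both non-growing libraries for 76 members and above them for 1, against 66.2% and 22.5% of all tested genes. In bulk libraries less RNA per cell and fewer cells that hold an RNA cannot be told apart, and TPM does not give the amount of RNA per oocyte. The share of TPM in TEC models and the granulosa marker sum, given above, moved with growth in both genotypes, and their part in the fall was not tested.

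Mrpl33, a large-subunit protein with a bacterial homolog, fell most (chromosome 5, 31596935 to 31664384, GRCm38). It was at 616 and 549.6 TPM in control non-growing and 98.9 and 90.9 TPM in control growing oocytes, which limma gave as -2.60 on the log2 scale (adjusted p = 1.19e-05, SE 0.13). The growing libraries were far below the non-growing ones, with no overlap. Mrpl23, whose bacterial homolog lines the exit of the peptide tunnel, was at 106 and 125 TPM in non-growing and 29.1 and 13.0 TPM in growing control oocytes. On the log2 scale limma gave -2.49 (adjusted p = 0.00109, SE 0.39), and the growing libraries differed from each other by more than those of most members.

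Mrps10, a protein of the head of the small subunit, went from 229 and 218 TPM to 64.5 and 60.9 TPM in control oocytes, which limma gave as -1.82 on the log2 scale (adjusted p = 2.03e-05, SE 0.11). Mrpl42, the second most abundant member of the PRC2 table, went from 858 and 814 TPM to 240 and 251 TPM, which limma gave as -1.77 on the log2 scale (adjusted p = 5.70e-05, SE 0.14). Both were apart between the stages by more than the spread of their libraries. The others among the 8 largest falls were Mrpl55 (log2 fold change -1.90), Mrps30 (-1.72), Mrps15 (-1.69) and Mrpl24 (-1.68). Mrps30 carries a small-subunit symbol but is assembled into the large subunit, and its log2 fold change in cKO oocytes was -0.74.

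The 6 members that did not pass were Mrpl18, Mrps25, Mrpl14, Mrpl9, Mrps22 and Mrpl10, described here after their values were seen. Mrpl18, a protein of the central protuberance of the large subunit, was at 178 and 175 TPM in non-growing and 181 and 179 TPM in growing control oocytes, a log2 fold change of 0.03 with a 95% interval of -0.14 to 0.20. Both growing libraries were slightly above both non-growing ones, and it was the 1 member with a value above 0. Mrpl14 was at 191 and 191 TPM and then at 183 and 178 TPM, a log2 fold change of -0.08 (95% interval -0.27 to 0.11). Mrps25 was at 126 and 128 TPM and then at 126 and 117 TPM, a log2 fold change of -0.06 (95% interval -0.28 to 0.16). Mrps22 was at 214 and 228 TPM and then at 194 and 191 TPM, or -0.20 on the log2 scale (limma adjusted p = 0.0927). Mrpl9 went from 142 and 143 TPM to 144 and 110 TPM, with overlap between the stages. Mrpl18, Mrpl14, Mrpl9 and Mrps25 overlap Tcp1, Tmem63b, Oaz3 and Nr2c2. Among the members that fell most Mrpl33, Mrpl24 and Mrps30 overlap Rbks, Rrnad1 and B430218F22Rik.

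In PRC2 cKO oocytes 70 members fell with growth and 0 rose, also at an unadjusted p under 0.05, against 46% and 20.1% of all tested genes. The median was -1.16 against -0.45 over all tested genes, and the stages did not overlap in 73 members that were lower and 1 that was higher, against 54.1% and 25.2%. Mrpl23 led the falls, from 131 and 146 TPM to 20.1 and 11.2 TPM, which limma gave as -3.12 on the log2 scale (adjusted p = 0.000390, SE 0.39). Mrpl33 followed at -2.55, Mrpl42 at -2.18, Mrps10 at -1.97, Mrpl24 at -1.87, Mrps15 at -1.85, Mrpl13 at -1.80 and Mrps18c at -1.71. The 8 members that did not pass were Mrpl4, Mrpl9, Mrpl10, Mrpl12, Mrpl18, Mrps7, Mrps26 and Mrps27. Mrpl9 (0.27, adjusted p = 0.145) and Mrpl10 (0.18, adjusted p = 0.389) had values above 0.

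The fall was shared by 67 members, which are 93.1% of those that fell in control and 95.7% of those that fell in cKO oocytes. Over all tested genes these shares were 78.7% and 92.3%. The growth changes in the 2 genotypes come from different libraries, and across the 78 members their Pearson correlation was 0.886, against 0.895 across all tested genes.

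**Figure D3:**
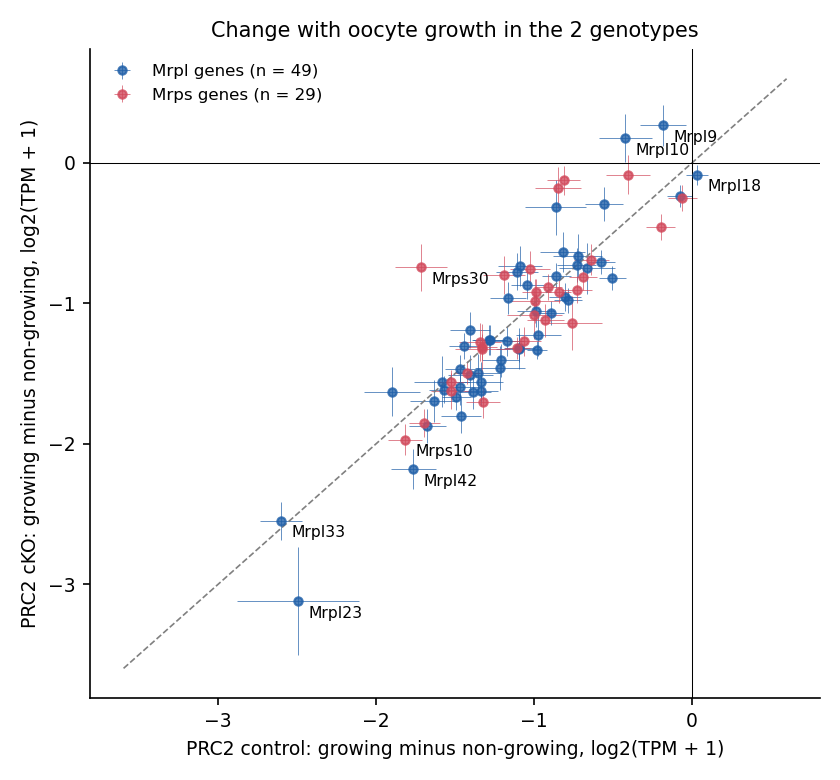
Log2 fold change from non-growing to growing oocytes in PRC2 control (horizontal) and PRC2 cKO (vertical), on the log2(TPM + 1) scale. Each point is 1 member, coloured by subunit symbol, bars are standard errors from limma and the dashed line marks equal change. Mrpl33 and Mrpl23 lie farthest down, Mrpl18 lies near 0 on both axes, and Mrps30 lies well above the dashed line.

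All tested genes also shifted downward with growth. Scaling by a trimmed mean moved the median of all genes in control growth from -0.67 to -0.07, and the members' median then was -0.33, which is 0.26 below all genes. Under that scaling 39 members fell and 6 rose in control oocytes, against 29.1% and 28.6% of all tested genes, and 52 fell and 7 rose in cKO oocytes, against 31.3% and 29.9%. With TPM rescaled to nuclear protein-coding genes 59 fell and 3 rose in control, against 38.7% and 23.3% of all tested genes, and 56 fell and 5 rose in cKO oocytes, against 32.3% and 28.8%. Quantile normalization gave 49 that fell and 5 that rose in control, against 36.1% and 24.9%, and 52 and 6 in cKO oocytes, against 37.9% and 25.8%. The members' median stayed below that of all genes by 0.24 to 0.42 in control and by 0.37 to 0.71 in cKO oocytes over the 4 scalings. In control oocytes 39 members fell under all 4. They are the same 39 that fell under trimmed-mean scaling, 50% of the members against 29.1% of all tested genes. The share of all tested genes that fell under all 4 was not computed. With any 1 library left out at TPM as deposited, the members' median in control growth ran from -1.145 to -1.074. The 39 include Mrpl33, Mrpl23, Mrpl55, Mrps10, Mrpl42, Mrps30, Mrps15 and Mrpl24, the 8 largest falls. Mrpl18 rose in control oocytes under each of the 3 rescalings, with log2 fold changes of 0.52 to 0.80, and lay above the median of all genes under all 4 scalings.

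By subunit, 45 of 49 Mrpl genes (median -1.16) fell and 27 of 29 Mrps genes fell (median -0.999) in control oocytes. The share of all tested genes that fell there was 54% (median -0.67). In cKO oocytes 44 Mrpl genes (median -1.26) and 26 Mrps genes (median -0.98) fell, against 46% of all tested genes (median -0.45). When Mrps30 and Mrps18a are counted with the large subunit, into which they are built, and Mrps36 is left out, the control medians were -1.17 and -0.995. By origin, 42 of 46 members with bacterial homologs (median -1.10) and 29 of 31 specific to mitochondria (median -1.09) fell in control oocytes, against the same 54%. The 10 mitochondria-specific members of the small subunit, among them Mrps22, Mrps25 and Mrps27, had a median of -0.79, with 8 that fell. The differences between these groups of members were not tested. The middle 50% of all 78 members ran from -1.41 to -0.81.

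The paralogs Mrps18a, Mrps18b and Mrps18c arose from 1 ancestral gene and occupy different places in the ribosome. Mrps18c was at 391.5 and 386 TPM in control non-growing and 163 and 147 TPM in control growing oocytes. Mrps18a was at 301 and 301 TPM and then 127 and 112 TPM, and Mrps18b was at 122 and 131 TPM and then 71.7 and 80.4 TPM. All 3 fell, with log2 fold changes of -1.32, -1.33 and -0.73 in that order (limma adjusted p = 6.15e-05, 3.18e-05 and 0.000460). The order of their levels, Mrps18c above Mrps18a above Mrps18b, was the same in control oocytes of both stages.

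The stalk of the large subunit recruits translation factors. Of its members and neighbours, Mrpl11 (-1.40), Mrpl54 (-1.28), Mrpl53 (-0.57) and Mrpl12 (-0.56) fell in control oocytes, and Mrpl10 did not pass (-0.42, adjusted p = 0.0603). In cKO oocytes Mrpl11, Mrpl54 and Mrpl53 fell, and Mrpl12 (-0.29, adjusted p = 0.0635) and Mrpl10 (0.18) did not pass. Mrpl10 was also among the lowest members, at 21.7 and 23.0 TPM in control non-growing and 17.2 and 15.7 TPM in control growing oocytes.

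Other parts of the same machinery were described with lists of genes chosen by function. Over all tested genes 54% fell and 16.6% rose in control oocytes, with a median of -0.67. The medians of the translation, assembly and transcription lists below lay near it, and differences of the lists from all genes were not tested. Of the 5 mitoribosomal proteins without an Mrpl or Mrps symbol 4 fell in control oocytes (median -0.90), among them Aurkaip1 at -0.98 and Chchd1 at -1.13. Of 12 translation factors 10 fell and 0 rose (median -0.75), with Mrrf, the ribosome recycling factor, at -1.21. Of 19 aminoacyl-tRNA synthetases and related enzymes 15 fell and 1 rose (median -1.29), with Rars2, the arginyl-tRNA synthetase, at -1.36. Of 27 assembly and rRNA modification factors 17 fell and 6 rose (median -0.81). Mrm3, an rRNA methyltransferase, went from 37.0 and 36.7 TPM to 8.61 and 7.84 TPM, while Nsun4, another rRNA methyltransferase, went from 14.5 and 15.9 TPM to 38.3 and 45.0 TPM. Of 12 genes of mitochondrial transcription and RNA stability 9 fell and 1 rose (median -0.78), with Slirp, a stabiliser of mitochondrial mRNA, at -1.85.

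Among larger sets, 78 of 81 cytosolic ribosomal protein genes fell and 1 rose in control oocytes (median -1.66), and 75 of 76 nuclear oxidative phosphorylation genes fell (median -1.21). Of the 13 mRNAs of the mitochondrial genome 12 fell (median -1.31). The mitochondrial ribosomal RNA mt-Rnr2 was at 670 and 705 TPM in control non-growing and 279.7 and 251 TPM in control growing oocytes. In cKO oocytes 79 cytosolic ribosomal protein genes fell (median -1.73), all 76 nuclear oxidative phosphorylation genes fell (median -1.38) and 10 mitochondrial mRNAs fell and 1 rose (median -1.27). Of the 4 sets the mitoribosomal genes had the median nearest to that of all genes in both genotypes. Over all tested genes 54% fell and 16.6% rose in control, and 46% fell and 20.1% rose in cKO oocytes.

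**Figure D4:**
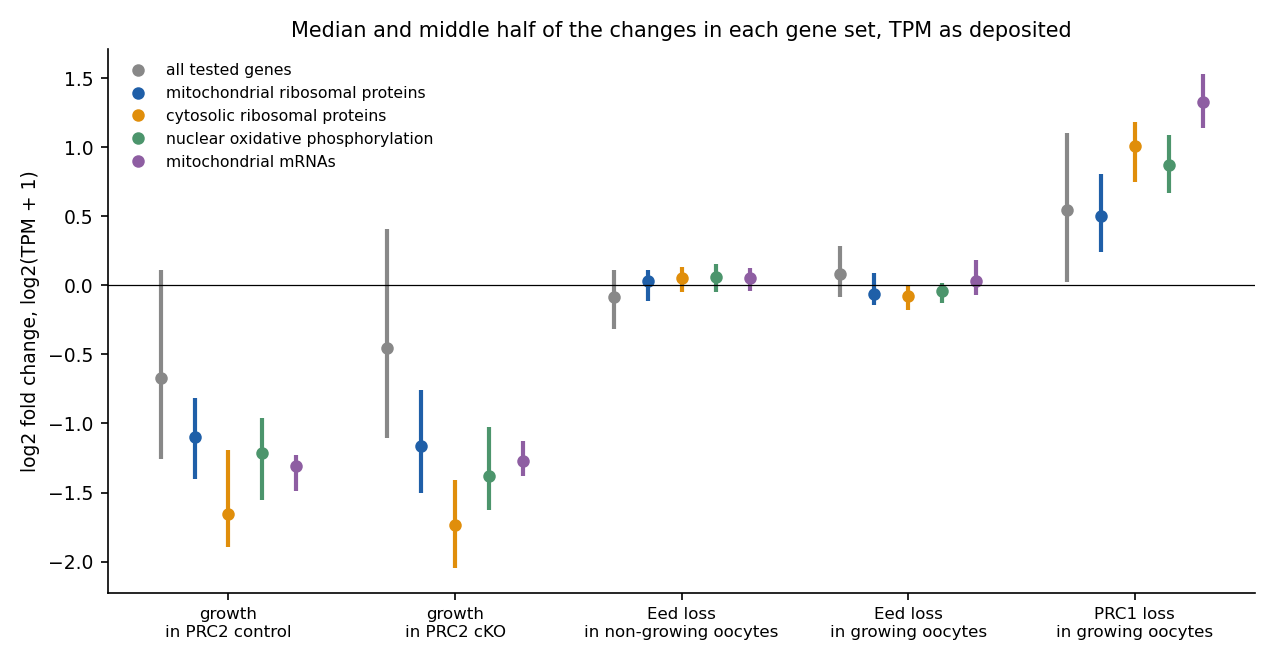
Log2 fold changes in 5 comparisons for all tested genes, the 78 members, cytosolic ribosomal proteins, nuclear oxidative phosphorylation genes and mitochondrial mRNAs, at TPM as deposited. Points are medians and bars span the 25th to the 75th percentile of the genes in a set. With growth all 4 sets lie below the median of all genes, with Eed loss all medians are near 0, and in the PRC1 comparison the members lie with all genes while the other 3 sets lie above.

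The second comparison asked whether loss of Eed changed these genes. In non-growing oocytes 0 of 78 members rose and 0 fell in limma at an adjusted p under 0.05, against 0.113% and 0.198% of all tested genes. At an unadjusted p under 0.05, 4 members were higher and 7 lower, against 5.85% and 10.5% of all tested genes. In growing oocytes 0 rose and 0 fell, against 0.12% and 0.0495%, and at an unadjusted p under 0.05, 4 were higher and 4 lower, against 6.73% and 3.21%. The members' median log2 fold change was 0.03 in non-growing and -0.06 in growing oocytes, where those of all tested genes were -0.09 and 0.08. The cKO and control libraries did not overlap in 26 members that were higher and 21 that were lower in non-growing oocytes, against 20.3% and 38.1% of all tested genes. In growing oocytes they did not overlap in 6 and 20 members, against 23.5% and 13%. The observed change was under 0.5 in size in 75 members in non-growing and in all 78 in growing oocytes, and the 95% interval of a member reached 0.28 to either side at the median and 0.92 at most. These intervals are not adjusted for the number of genes tested. Changes within them were not detectable with 2 against 2 libraries, and larger changes could also fail the adjusted threshold, as Mrps7 below did.

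Mrps7, a protein of the head of the small subunit, came closest to the threshold. It was at 148 and 151 TPM in control, against 103 and 98.7 in cKO non-growing oocytes, or -0.57 on the log2 scale (95% interval -0.81 to -0.32, limma adjusted p = 0.0932). The cKO libraries were both below the controls. Growing oocytes had 92.7 and 77.5 TPM in control, against 94.0 and 90.6 in cKO, which overlap.

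Mrps30 was at 24.0 and 26.8 TPM in control, against 16.0 and 18.6 in cKO non-growing oocytes, or -0.53 on the log2 scale (limma adjusted p = 0.228). Growing oocytes had 6.90 and 7.15 TPM in control, against 8.66 and 11.3 in cKO, or 0.44 on the log2 scale (limma adjusted p = 0.474). The groups did not overlap at either stage, with cKO below control in non-growing and above it in growing oocytes. With Mrps7 and Mrps30, the 3 lower and 3 higher members of smallest p in non-growing oocytes were Mrpl10 (-0.51), Mrps10 (0.42), Mrpl52 (0.45) and Mrpl58 (0.18). In growing oocytes, with Mrps30, they were Mrpl53 (-0.29), Mrpl58 (-0.17), Mrpl48 (-0.22), Mrps11 (0.27) and Mrpl52 (0.38). With 1 library left out the growing-stage value of Mrps30 ran from 0.27 to 0.62 and that of Mrpl52 from 0.21 to 0.56. None of these passed; leaving Mrps7 aside, the smallest adjusted p was 0.174 at the non-growing stage and 0.387 at the growing stage.

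Genes for cytosolic ribosomal proteins and for nuclear subunits of oxidative phosphorylation also had 0 that rose and 0 that fell at an adjusted p under 0.05 at either stage, with medians of 0.05 and 0.06 in non-growing and -0.07 and -0.04 in growing oocytes.

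The difference between the effects of Eed loss at the 2 stages, which is also the difference between the growth changes of the genotypes, passed in 0 members in either direction in limma, against 0.0919% and 0.00707% of all tested genes. At an unadjusted p under 0.05 it was positive in 4 members and negative in 3, against 12.2% and 3.56% of all tested genes. The members' median difference was -0.08, against 0.16 over all tested genes. The 3 positive and 3 negative members of smallest p were Mrps7 (difference 0.69, limma adjusted p = 0.285), Mrps30 (0.97, adjusted p = 0.305), Mrpl58 (-0.35), Mrps26 (0.67), Mrpl48 (-0.32) and Mrps18c (-0.38). Without PRC2 cKO growing replicate 1 the positive share of all tested genes was 6.11% and the negative share 0.479%, and 3 members passed. These were Mrps30 (1.15, adjusted p = 0.0424) and Mrps26 (0.84, adjusted p = 0.0462) as positive and Mrpl42 (-0.65, adjusted p = 0.0384) as negative, the last named after its value was seen. With 1 library left in that group, its spread is taken to be that of the other groups. The filter on low values, applied anew, left 13987 tested genes in that fit.

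The third comparison was between the libraries labelled PRC1 cKO and PRC1 control growing oocytes. Of the 78 members 37 rose and 2 fell, against 41.3% and 6.45% of all tested genes, and the median was 0.50 against 0.55. The share of members that rose, 47.4%, was near that of all tested genes. The groups did not overlap in 58 members that were higher and 8 that were lower, against 62.3% and 15.2% of all tested genes. Without PRC1 control replicate 1, 17 members rose and 0 fell, against 22.9% and 2.52% of all tested genes, and without replicate 2, 24 rose and 0 fell, against 31.5% and 3.43%. Without the first library labelled PRC1 cKO 31 rose and 1 fell, against 26.3% and 7.72%, and without the second 36 rose and 1 fell, against 38% and 8.23%. The granulosa marker sum was 40.2 and 27.2 TPM in these cKO libraries against 9.92 and 12.7 TPM in control. The other marker sums, given above, also differed without overlap, and the part of such differences in these changes was not tested.

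Mrpl19, a large-subunit protein at the interface of the subunits, rose most. It was at 14.3 and 16.6 TPM in control, against 57.5 and 50.6 in the libraries labelled PRC1 cKO, which limma gave as 1.74 on the log2 scale (adjusted p = 0.00291, SE 0.17). Mrps10 was at 44.3 and 54.8 TPM against 143 and 168 TPM, which limma gave as 1.64 on the log2 scale (adjusted p = 0.00324, SE 0.17). In both genes the lower cKO value was more than the higher control value, as it was in the next 6.

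Mrpl20, whose bacterial homolog is needed early in large-subunit assembly, was at 34.9 and 44.0 TPM against 125 and 122 TPM (log2 fold change 1.63, limma adjusted p = 0.00304). Mrpl36, a small protein of the large subunit, was at 24.5 and 36.3 TPM against 89.0 and 93.4 TPM (1.58, adjusted p = 0.00552). Mrpl33, the largest fall with growth, was at 61.8 and 71.0 TPM against 183 and 196 TPM (1.502, adjusted p = 0.00261). These 3 large-subunit genes were thus far apart between the groups. Mrps34, a mitochondria-specific protein of the small subunit, was at 25.1 and 29.9 TPM against 69.6 and 72.5 TPM (1.34, adjusted p = 0.00403). Mrps30 was at 10.9 and 15.1 TPM against 37.4 and 30.1 TPM (1.32, adjusted p = 0.00990), and Mrpl16 at 17.8 and 20.3 TPM against 50.1 and 42.4 TPM (1.24, adjusted p = 0.00595).

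Of the members that fell, Mrpl53, a mitochondria-specific protein near the stalk, was at 57.7 and 57.0 TPM in control, against 33.8 and 33.6 in the libraries labelled PRC1 cKO. On the log2 scale limma gave -0.75 (adjusted p = 0.0116, SE 0.14), and it shares transcript sequence with Gm42688 on the same strand. Mrpl9 was at 202 and 222 TPM against 155 and 150 TPM, which limma gave as -0.47 on the log2 scale (adjusted p = 0.0325, SE 0.13). Both kept their groups apart. Mrps31 was at 57.8 and 57.5 TPM against 46.6 and 40.8 TPM and did not pass (-0.39, adjusted p = 0.0819).

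**Figure D5:**
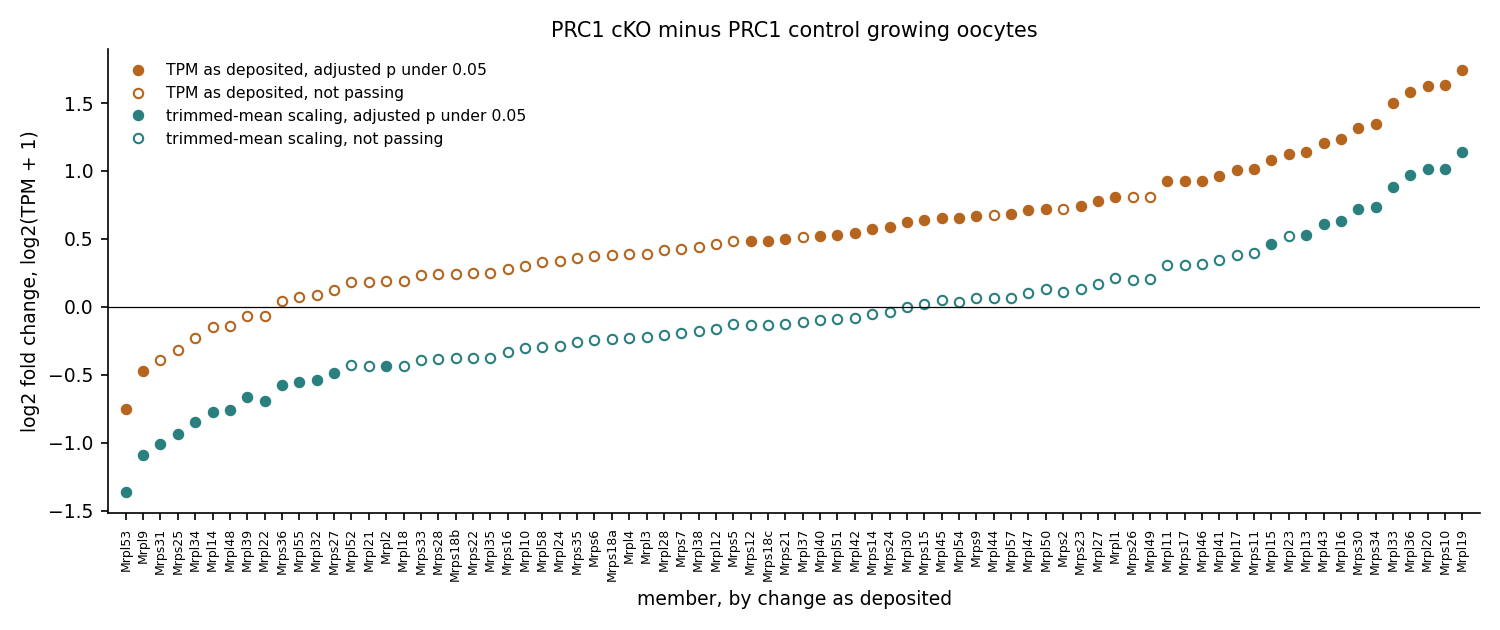
Log2 fold change of each member between the libraries labelled PRC1 cKO and PRC1 control growing oocytes, ordered by the value at TPM as deposited (brown) and with the value under trimmed-mean scaling (green). Filled points passed limma's adjusted p of 0.05 and open points did not. With deposited TPM 37 members rose and 2 fell, against 41.3% and 6.45% of all tested genes. With trimmed-mean scaling 11 rose and 14 fell, against 23.3% and 19.7%.

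The direction of the set as a whole depended on the scale. Scaling by a trimmed mean moved the median of all genes from 0.55 to 0.02 and that of the members from 0.50 to -0.12, with 11 members that rose and 14 that fell, against 23.3% and 19.7% of all tested genes. Quantile normalization gave 17 that rose and 8 that fell, against 18.2% and 17.6% of all tested genes, with a median of 0.20 and that of all genes at -0.04, and rescaling to nuclear protein-coding genes gave 23 and 6, against 33.8% and 10.1%, with medians of 0.27 and 0.37. Relative to all genes the members' median was -0.14, 0.24 and -0.10 in that order, and -0.05 at TPM as deposited. The 11 members that rose under all 4 scalings were Mrpl13, Mrpl15, Mrpl16, Mrpl19, Mrpl20, Mrpl33, Mrpl36, Mrpl43, Mrps10, Mrps30 and Mrps34. They are the same 11 that rose under trimmed-mean scaling, 14.1% of the members against 23.3% of all tested genes. The share of all tested genes that rose under all 4 scalings, or with each of the 4 libraries left out, was not computed. All 11 also passed with any 1 of the 4 libraries left out at deposited TPM. Mrpl9 and Mrpl53 fell under all 4 scalings but did not pass with each library left out.

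By subunit 24 of 49 Mrpl genes rose and 2 fell (median 0.53), and 13 of 29 Mrps genes rose and 0 fell (median 0.48). All 16 bacterial-homolog members of the small subunit had positive values at deposited TPM, with 10 that rose. On that scale the median of all tested genes was 0.55 and 41.3% of them rose. Under trimmed-mean scaling the median of the 29 Mrps genes was -0.13, so the sign depended on the scale. Of the Mrps18 paralogs Mrps18c rose (0.49, limma adjusted p = 0.0291), and Mrps18a (0.38) and Mrps18b (0.24) did not pass. Of the stalk and its neighbours Mrpl11 (0.93) and Mrpl54 (0.66) rose, Mrpl12 (0.46) and Mrpl10 (0.30) did not pass, and Mrpl53 fell. Mrps36, the former member, had a value of 0.04 and overlapping groups. Mrps33, the most abundant member, was at 364 and 317 TPM against 345 and 463 TPM, also with overlap.

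The other sets moved farther than the mitoribosomal genes at deposited TPM. Of 81 cytosolic ribosomal protein genes 75 rose and 0 fell (median 1.01), of 76 nuclear oxidative phosphorylation genes 66 rose and 0 fell (median 0.87), and of 12 mitochondrial mRNAs 10 rose and 0 fell (median 1.33). Under trimmed-mean scaling their medians were 0.39, 0.25 and 0.71, while that of the mitoribosomal genes was below 0. Mitochondrial mRNAs held 0.296% and 0.261% of TPM in PRC1 control and 0.879% and 0.774% in the libraries labelled PRC1 cKO. Among 20 aminoacyl-tRNA synthetases and related enzymes 12 rose and 1 fell (median 0.95). Of 12 translation factors 3 rose (median 0.29), and of 27 assembly factors 9 rose and 2 fell (median 0.40). Over all tested genes 41.3% rose and 6.45% fell (median 0.55), and differences of these lists from all genes were not tested. Among 13 genes of mitochondrial transcription and RNA stability 5 rose and 1 fell. The 1 that fell was Polrmt, the mitochondrial RNA polymerase, at 89.0 and 84.0 TPM in control, against 35.8 and 44.5 in the libraries labelled PRC1 cKO (log2 fold change -1.10, limma adjusted p = 0.00671).

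The PRC1 libraries and the PRC2 libraries share no samples. All 37 members that rose in the libraries labelled PRC1 cKO were among the 72 that fell with growth in PRC2 control and among the 70 that fell in PRC2 cKO oocytes, where most members fell in any case. Of the 4891 genes that rose in these libraries and were tested in both tables, 78.6% fell with growth in PRC2 control and 72.8% in PRC2 cKO oocytes. Across the 78 members the Pearson correlation between the growth change in PRC2 control and the PRC1 change was -0.541, and across 13147 genes tested in both tables it was -0.559. In Mrpl33 and Mrps10 both changes were among the 8 largest of their comparison, as they were in Mrps30.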

How the data were processed

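RNA from oocytes was sequenced in 12 libraries, 2 per group. The labels' protocols give a low-input RNA kit, a single-cell or low-input cDNA kit and paired reads. TPM values were computed by the authors and deposited as 2 tables, and the submitters' processing notes name RSEM 1.3.3, Subread 2.0.3, HISAT2, Trim Galore 0.6.10, SAMtools and the build GRCm38/mm10. The sources used here do not say which tool gave the TPM values or how strand and reads with several matches were handled. TPM keeps no depth, so no count test and no counting interval was possible, and the 2 tables were tested separately.

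Genes were kept that reached 1 TPM in 2 or more libraries of their table. log2(TPM + 1) was fitted with limma 3.58.1 in R 4.3.3, with all groups of a table in 1 fit, a mean-variance trend, two-sided tests, Benjamini-Hochberg adjustment over all tested genes and a threshold of 0.05. Intervals are at 95%. The fit was tested on simulated data. Tables were handled with Python 3.11.15, and copies were found with blastn 2.17.0 among GENCODE vM21 transcripts. Alternatives were 2 other pseudocounts, no filter, no trend, trimmed-mean, quantile and nuclear protein-coding scaling, a replicate block and leaving out each library.

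The text names, per comparison, up to 8 members with the largest rise and the largest fall among those that passed, with those of smallest p added up to 3 where fewer passed in a direction. It also names the 4 highest and 4 lowest members by mean TPM in a table, the Mrps18 paralogs, Mrps30, Mrps36, the stalk proteins and up to 3 genes of each pathway list. The symbol rule used no measured value, but members and lists were chosen with earlier results of these data known.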

Additional observations from a re-analysis of the deposited data

How the results depend on the processing

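For growth in PRC2 control oocytes, trimmed-mean, quantile and nuclear protein-coding scaling gave 6, 5 and 3 members that rose, against 28.6%, 24.9% and 23.3% of all tested genes. The members' medians were -0.33, -0.46 and -0.61. The first scaling left 39 that fell, against 29.1%, and a pseudocount of 5 gave a median of -1.03. For growth in PRC2 cKO oocytes the same scalings gave 7, 6 and 5 members that rose, against 29.9%, 25.8% and 28.8%. The members' medians were -0.65, -0.58 and -0.68, and a pseudocount of 5 gave -1.10. The large-minus-small difference of medians there was -0.22 under quantile scaling and -0.23 with subunits as assembled. Trimmed-mean scaling gave medians of 0.16 and -0.18 for Eed loss in non-growing and growing oocytes and -0.32 for their difference, for which quantile scaling gave -0.14. In the PRC1 comparison the 3 scalings gave 11, 17 and 23 members that rose, against 23.3%, 18.2% and 33.8% of all tested genes. Those that fell were 14, 8 and 6, against 19.7%, 17.6% and 10.1%. The members' medians were -0.12, 0.20 and 0.27, so the first scaling reversed the median. Without the filter, or without the trend, 1 fell. The cause of these changes was not tested.

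Replicate numbers in the labels did not pair the libraries, with correlations of same-numbered deviations from -0.03 to 0.26 among PRC2 groups and of -0.268 between PRC1 groups. With a replicate block 18 members rose and 0 fell in the PRC1 comparison, against 30.1% and 4.02% of all tested genes, and a crossed block, chosen after seeing the data, gave 52 and 4, against 53.1% and 10.5%.

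With 1 library left out, 17 to 36 members rose and 0 to 1 fell in the PRC1 comparison, with medians of 0.43 to 0.60. In the difference of Eed effects 0 to 2 were positive and 0 to 1 negative. The median for Eed loss was -0.118 to 0.017 in growing oocytes, above 0 without PRC2 control growing replicate 1, and -0.01 to 0.05 in non-growing oocytes. The growth medians were -1.233 to -1.119 in cKO and -1.15 to -1.07 in control oocytes. Large-minus-small differences of medians ran from -0.165 to -0.068 for growth in control, -0.333 to -0.201 for growth in cKO, -0.039 to 0.061 for Eed loss in growing oocytes and -0.0076 to 0.107 in the PRC1 comparison. Mrpl10 in cKO growth ran from -0.0058, without PRC2 cKO growing replicate 2, to 0.359.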
